A study of Mus musculus with 10 samples.

Results

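The genes described here are 10 that coat the lipid droplet or break down the fat stored in it, out of 43629 genes counted in each library. They were taken by gene symbol from a list drawn up with earlier results of these data known: the perilipins Plin2, Plin3, Plin4 and Plin5, the lipases Pnpla2, Lipe and Mgll, the lipase co-activator Abhd5, and the lipase inhibitors G0s2 and Hilpda. All 10 were found, and all 10 passed the filter on low counts in each comparison.

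A lipid droplet is a store of triglyceride wrapped in a phospholipid layer and a coat of proteins, of which the perilipins are the main family. Fat is released from it in steps: ATGL, the product of Pnpla2, removes the first fatty acid from a triglyceride, hormone-sensitive lipase (Lipe) acts on the diglyceride left, and monoglyceride lipase (Mgll) removes the last fatty acid. ATGL is switched on by the co-activator CGI-58 (Abhd5) and held back by the small proteins encoded by G0s2 and Hilpda. In skeletal muscle the droplets lie beside mitochondria, and Plin5 is the perilipin of tissues that burn fatty acids.

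The study concerned IMP2, an mRNA-binding protein that is the product of Igf2bp2, in adult muscle. RNA from skeletal muscle of male C57BL/6 mice was sequenced in 2 forms. Total RNA gave 3 libraries of wild-type mice (WT) and 3 of IMP2 knockout mice (KO). Immunoprecipitation (IP) with a home-made antibody to IMP2 gave 2 libraries of WT muscle and 2 of KO muscle. All mice were 6 weeks old and had been fed a high-fat diet (HFD) for 2 weeks, so no group on another diet is compared here. The genotype label of the KO samples reads IMP2 null, whereas the series text speaks of a muscle-specific knockout; the Cre driver and the deleted part of the gene are not given in the sources used here. Whether each library is a separate animal is not said in the labels, and p-values here measure only the spread between these libraries, which may be technical.

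Gene counts came to 9691580 to 14809788 per total RNA library and 917462 to 4037480 per IP library, so that a count of 0 allows up to 0.203 to 0.310 CPM (gene counts relative to library size) in total RNA and 0.743 to 3.27 CPM in IP; these limits cover counting error only. Igf2bp2 itself was at 2.33, 2.68 and 3.16 CPM in WT total RNA and at 2.33, 1.75 and 2.32 CPM in KO total RNA, a log2 difference of -0.36 ± 0.28 (SE, edgeR adjusted p = 0.897). The libraries labelled KO thus held reads of the targeted gene, and a count over the whole gene does not check the label where the deleted part is unknown; WT and KO below are the labels. Skeletal fibre markers summed to 110865 to 288839 CPM in total RNA. WT total RNA library 2 stood apart: it held 2919 counts of Ucp1, the uncoupling protein that defines brown fat, where WT libraries 1 and 3 had 2 and 53 and KO had 1, 1 and 2. The 9 general adipocyte markers summed to 410, 1027 and 459 CPM in WT and 323 to 574 CPM in KO, and were all above 0 counts except Adrb3 in KO library 1. Fabp4 alone made up 341, 578 and 389 CPM of these sums in WT and 242, 369 and 422 CPM in KO. WT total RNA library 3 also stood apart, with a fibre marker sum of 110865 CPM against 197950 and 211057 in the other WT libraries, a TMM factor of 1.24, and a chi-square per degree of freedom of 65.2 and 69.8 to them, where they had 22 to each other; its part in the results was not tested beyond leaving it out. KO total RNA library 3 had the highest fibre marker sum (288839 CPM) and a TMM factor of 0.845. Its chi-square per degree of freedom was 32 and 30.9 to the other KO libraries, which had 13.3 to each other. The part of KO library 3 in the results was likewise not tested beyond leaving it out. In KO total RNA library 1 the list of islet and exocrine pancreas markers summed to 2191 CPM, where no other total RNA library was above 2.54 CPM. Most of that sum was from Ins2 (1290 CPM) and Ins1 (534 CPM), and the exocrine markers Cpa1, Prss2 and Cela1 were at 0.556, 0.778 and 1.56 CPM. Of the 8 brown adipocyte markers, Lhx8 had 0 counts in all 6 total RNA libraries and Elovl3 in WT library 1 and the 3 KO libraries. Ucp1 was found in all 4 IP libraries: WT IP had 17 and 176 counts of it, KO IP 44 and 97.

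The perilipins lie in part side by side (GRCm38, GENCODE M21). On the minus strand of chr17, Plin4 (ENSMUSG00000002831, chr17:56100591-56109803) is 1.8 kb from Plin5 (ENSMUSG00000011305, chr17:56111601-56117596), and Plin3 (ENSMUSG00000024197, chr17:56277476-56292873) follows 160 kb further on. Plin2 (ENSMUSG00000028494) is at chr4:86648386-86670060 on the minus strand. Of the lipases, Pnpla2 (ENSMUSG00000025509) is at chr7:141455198-141460743 on the plus strand, Lipe (ENSMUSG00000003123) at chr7:25379527-25398710 on the minus strand and Mgll (ENSMUSG00000033174) at chr6:88724412-88828360 on the plus strand. Abhd5 (ENSMUSG00000032540) is at chr9:122351608-122381524 on the plus strand, G0s2 (ENSMUSG00000009633) at chr1:193272161-193273217 on the minus strand and Hilpda (ENSMUSG00000043421) at chr6:29272488-29275446 on the plus strand. The strand setting of the counting is not stated, so reads of an overlapping gene on the other strand may be included: 918 exon bases of Lipe, 950 of Abhd5, 167 of Mgll and 17 of Plin4 are shared in this way.

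Many droplet genes are known targets of PPAR receptors, which bind paired copies of the letters AGGTCA with 1 letter between them. RefSeq promoters of GRCm38.p6 matched all 10 genes with 14 windows, and the 250 bases before the start were searched on both strands. AGGTCA stood in windows of 3 of the 10 genes (Plin2, Plin5 and Abhd5), which is 3 of their 14 windows, and in 14% of the 32851 windows of all genes. The paired form, AGGTCA, any letter, AGGTCA, which contains the shorter one, was in 0 windows of these genes and in 11 windows of all genes (0.0335%). Below are the upstream sequences of the genes with a match and of Plin4, the neighbour of Plin5. They run 5′ to 3′ on the strand of the gene and lie outside annotated exons. Capitals mark AGGTCA or its reverse complement, TGACCT. A match describes letters and is not a measured binding site.
Plin5, chr17:56117597-56117798, minus strand: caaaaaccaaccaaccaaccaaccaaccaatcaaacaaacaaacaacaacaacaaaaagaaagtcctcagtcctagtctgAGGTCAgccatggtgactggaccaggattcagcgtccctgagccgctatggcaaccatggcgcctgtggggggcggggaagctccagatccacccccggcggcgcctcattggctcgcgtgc
Plin4, chr17:56109804-56110032, minus strand: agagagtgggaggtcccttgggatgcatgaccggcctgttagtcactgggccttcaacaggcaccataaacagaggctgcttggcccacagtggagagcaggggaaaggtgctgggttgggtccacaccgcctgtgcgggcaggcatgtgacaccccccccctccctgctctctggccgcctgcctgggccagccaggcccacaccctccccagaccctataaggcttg
Plin2, chr4:86670061-86670309, minus strand: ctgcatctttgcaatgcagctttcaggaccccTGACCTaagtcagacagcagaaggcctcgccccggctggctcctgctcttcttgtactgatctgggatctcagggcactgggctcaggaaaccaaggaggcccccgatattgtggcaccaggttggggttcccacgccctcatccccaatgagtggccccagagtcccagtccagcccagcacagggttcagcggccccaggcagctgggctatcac
Abhd5, chr9:122351366-122351607, plus strand: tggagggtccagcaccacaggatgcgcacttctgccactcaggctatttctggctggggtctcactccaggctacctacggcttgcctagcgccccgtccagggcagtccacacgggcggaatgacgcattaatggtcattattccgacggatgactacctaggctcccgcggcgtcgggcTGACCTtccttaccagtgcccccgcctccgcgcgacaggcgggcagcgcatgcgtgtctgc
Reading towards the gene, the Plin5 match starts 170 bases before the RefSeq start site on the strand of the gene; those of Plin2 and Abhd5 start 218 and 69 bases before it and are on the other strand.

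Per length, the ATGL gene was the most abundant of the 10 in WT muscle. Levels in CPM per kilobase of exon, over the 3 WT total RNA libraries, ran from a mean of 123 ± 53.7 (SD) for Pnpla2 and 67.3 ± 18.7 for Plin4 to 4.87 ± 0.73 for Abhd5 and 3.34 ± 0.338 for Hilpda. Between them lay G0s2 (28.1 CPM per kilobase), Plin5 (26.6), Plin2 (16.8), Mgll (14.5), Plin3 (12.1) and Lipe (7.01). The ranges of neighbours in this order overlapped, except that Plin4 stood apart from G0s2 and Abhd5 from Hilpda. The co-activator of ATGL was therefore listed at a far lower level per length than the lipase, and the G0s2 inhibitor lay between them.

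None of the 10 genes passed the test between KO and WT total RNA, and the perilipins had the smallest p-values among them. Plin5 was the gene with the most negative log2 difference and the only one whose 3 KO libraries were all below the 3 WT libraries. The droplet coat is described before the lipases and their regulators.

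Plin5, the coat protein of oxidative tissues, was at 77.0, 40.6 and 48.8 CPM in WT, given here and below in the order of libraries 1 to 3, and at 36.7, 31.7 and 39.1 CPM in KO. The lowest WT library lay close above the highest KO library, and WT library 1 was the highest by far. The log2 difference, KO minus WT, was -0.63 ± 0.23 (SE, 95% interval -1.16 to -0.10), with an unadjusted p of 0.0242 and an adjusted p of 0.897 by the quasi-likelihood test of edgeR after Benjamini-Hochberg adjustment. It ranked 235 of 13169 genes by p. Without WT library 1 the difference was -0.32, which is the weakest value with any library left out.

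Plin4, a perilipin abundant in muscle and white fat, was at 343, 311 and 512 CPM in WT and at 325, 257 and 242 CPM in KO. KO library 1 lay between WT libraries, so the groups overlapped, and WT library 3 was the highest. The log2 difference was -0.50 ± 0.22 (unadjusted p = 0.051, edgeR adjusted p = 0.897), and it was -0.24 without WT library 3.

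Plin2, the perilipin found on droplets of most cell types, was at 55.1, 83.9 and 38.2 CPM in WT and at 38.4, 35.3 and 53.7 CPM in KO. The groups overlapped, and the highest value was in the WT library with brown fat transcripts. Its log2 difference of -0.48 ± 0.28 was -0.12 without that library. Plin3, a perilipin that also occurs free in the cytosol, was at 53.0, 47.3 and 37.1 CPM in WT and at 36.7, 38.6 and 28.8 CPM in KO. Its groups overlapped only between WT library 3 and KO library 2, and the log2 difference was -0.40 ± 0.18 (unadjusted p = 0.0572, edgeR adjusted p = 0.897).

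Of the lipases, Pnpla2 was at 348, 544 and 222 CPM in WT and at 298, 243 and 267 CPM in KO. The 3 KO values lay within the WT range, and both the highest and the lowest value were in WT. The log2 difference was -0.46 ± 0.29 (edgeR adjusted p = 0.897) with all libraries and -0.07 without WT library 2.

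Lipe was at 29.4, 62.1 and 32.3 CPM in WT and at 30.2, 33.0 and 37.2 CPM in KO. WT library 2 was again the highest, and the other 5 libraries lay between 29.4 and 37.2 CPM. The log2 difference of -0.30 ± 0.27 turned to 0.13 ± 0.18 without it. Mgll was at 68.0, 95.9 and 56.2 CPM in WT and at 57.5, 80.9 and 83.0 CPM in KO, with means of 73.4 and 73.8 CPM that differed by less than the spread within either group.

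Abhd5 was the steadiest of the 10, at 32.9, 29.8 and 24.3 CPM in WT and at 29.8, 23.6 and 28.8 CPM in KO. Its log2 difference was -0.08 ± 0.17 with a 95% interval of -0.46 to 0.30. The inhibitor G0s2 was at 19.9, 36.6 and 16.9 CPM in WT and at 18.6, 22.2 and 21.2 CPM in KO, with WT library 2 highest; its difference of -0.24 ± 0.27 became 0.18 ± 0.19 without that library. Hilpda, which hypoxia is known to induce, was the least abundant, at 3.26, 3.84 and 3.95 CPM in WT and at 2.67, 4.06 and 5.84 CPM in KO. The highest and the lowest Hilpda value were both in KO, and the log2 difference was 0.19 ± 0.30.

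**Figure D1:**
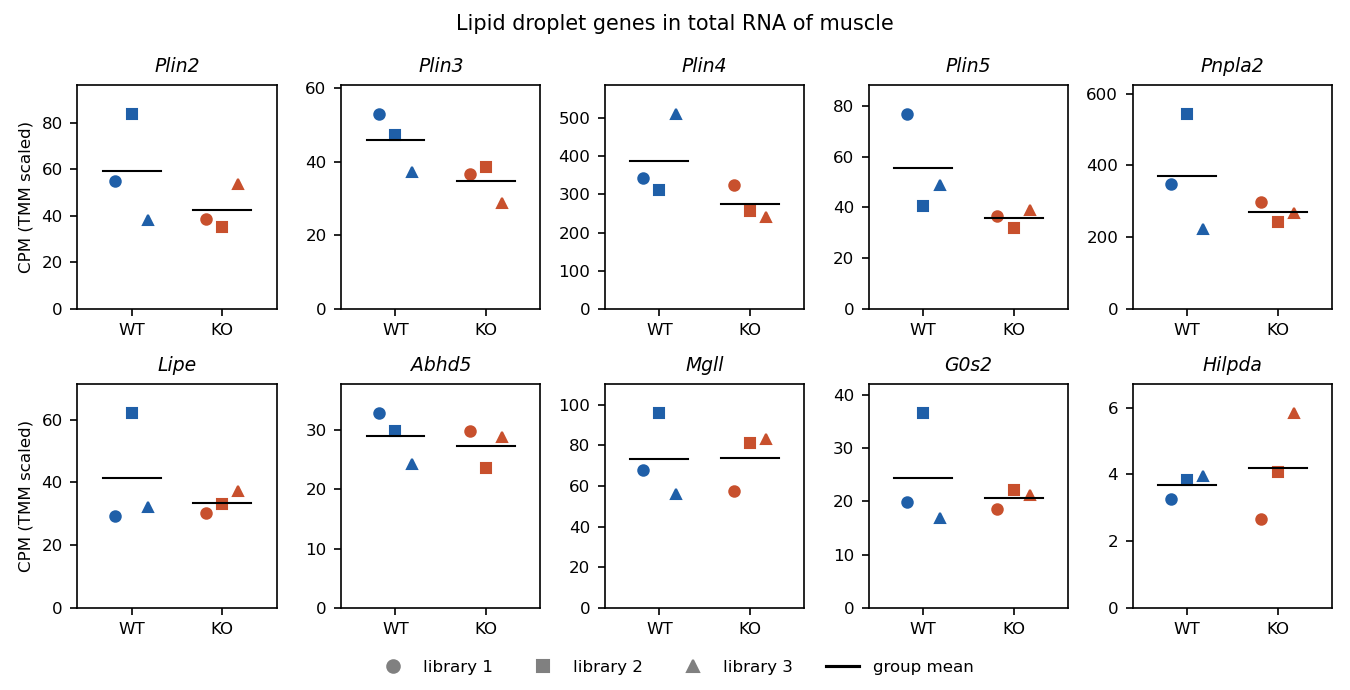
Levels of the 10 genes in total RNA, in CPM scaled by TMM factors, with 1 point per library and a line at the group mean. WT library 2 (blue square) is the highest point for Plin2, Pnpla2, Lipe, Mgll and G0s2, and only for Plin5 do all 3 KO points lie below all 3 WT points.

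Over the 13169 genes tested in total RNA, edgeR called 0 at an adjusted p of 0.05 (0% called), so the 0 of 10 here is the background; DESeq2 called 3 genes and limma-voom 0, with 0 of the 10 in either. At an unadjusted p of 0.05, edgeR counted 1 of the 10 (Plin5) and 4.32% of all genes. DESeq2 counted 2 of the 10 and 572 of 23541 genes, and limma-voom 1 of the 10 and 500 of 13169 genes. The edgeR count was 4 of the 10 without WT library 3 (567 of 13187 genes) and 2 without WT library 2 (874 of 13308 genes). It was 0 of the 10 without KO library 2 (406 of 13517 genes). Groups that did not overlap, with KO lower, were seen for 1 of the 10 and for 4.85% of all genes, and with KO higher for 0 of the 10 and 4.76%. The log2 difference was negative for 8 of the 10, with a median of -0.35, where all genes had 52% negative and a median of -0.01. These 10 are read from the same libraries and are not independent of each other. When libraries were scaled by library size alone, the median of all genes moved to -0.23 and all 10 were negative with a median of -0.54, so that Mgll (-0.18) and Hilpda (-0.05) changed sign on that scale while lying above the median of all genes.

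The negative shift was smaller without the brown fat library. Then 6 of the 10 were negative and their median was -0.06, against 0.01 for all genes. Plin5 and Plin4 went the other way and were further from 0: Plin5 at -0.80 ± 0.23 (unadjusted p = 0.00609) and Plin4 at -0.62 ± 0.24 (unadjusted p = 0.0282), each with an edgeR adjusted p of 0.742. Both then had all KO libraries below the 2 WT libraries, as did 10.2% of all genes, and 0 of the 10 had them above, as did 10.9%. Of all genes edgeR called 0% on either reduced set of libraries. With KO library 1, which held the islet transcripts, left out as well, Plin5 was at -0.83 ± 0.29 and Plin4 at -0.77 ± 0.28. On that set of 4 libraries Lipe, Mgll, G0s2 and Hilpda did not overlap with KO higher, which was so for 16.8% of all genes, and Plin4 and Plin5 did not overlap with KO lower, which was so for 16.7%.

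**Figure D2:**
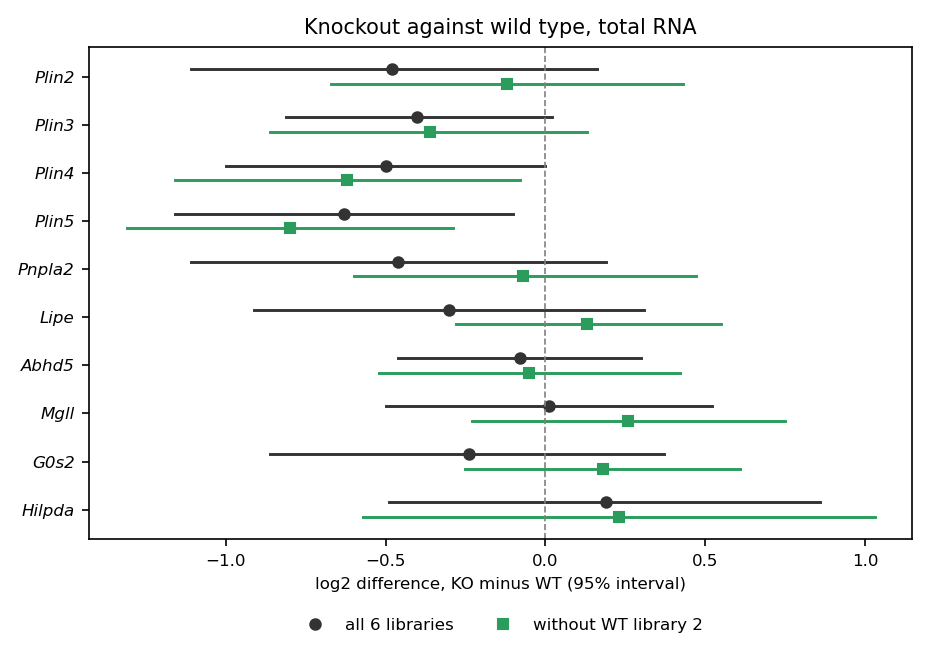
Log2 differences between KO and WT total RNA with 95% intervals, from all 6 libraries (black circles) and without WT library 2 (green squares). Leaving that library out moves Plin2 from -0.48 to -0.12 and Pnpla2 from -0.46 to -0.07, and moves Plin5 from -0.63 to -0.80 and Plin4 from -0.50 to -0.62.

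The genes fell into different patterns over the 6 libraries, described here without a test. The SD of log2 CPM was 0.47 for Plin2 and for Pnpla2, 0.45 for Plin5, 0.40 for Lipe and 0.18 for Abhd5. Plin2, Pnpla2, Lipe, Mgll and G0s2 were highest in WT library 2, where the centred log2 level was 0.79 for Plin2 and 0.83 for Pnpla2 but -0.10 for Plin5 and -0.05 for Plin4. Plin3, Plin5 and Abhd5 were highest in WT library 1, Plin4 in WT library 3 and Hilpda in KO library 3. In bulk muscle, fewer cells of a type and less RNA per cell cannot be told apart, and the part that fat cells have in these levels was not tested.

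**Figure D3:**
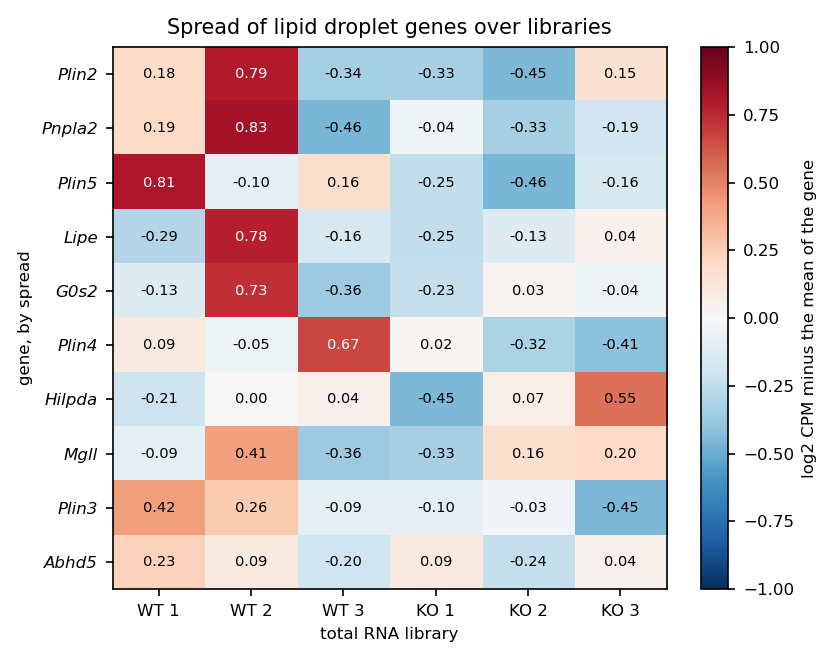
Centred log2 CPM of each gene in each total RNA library, ordered by spread, with red above and blue below the mean of the gene. The column of WT library 2 is red for Plin2 (0.79), Pnpla2 (0.83), Lipe (0.78) and G0s2 (0.73), and Plin5 is instead highest in WT library 1 (0.81).

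Likeness of pattern was measured as the root mean square distance between centred log2 CPM over these 6 libraries, among 7935 genes with a mean of at least 10 CPM. Among the 10 genes themselves the nearest were Lipe and G0s2 (0.13), then G0s2 and Mgll (0.18) and Pnpla2 and Plin2 (0.20), all of which share the high value in WT library 2. Among all genes, Plin2 was nearest to Mcrip2 (0.09), Nudt18 (0.12) and Mmd (0.12), and Pnpla2 to Pmepa1 (0.07), Pfkl (0.11) and Ptges3 (0.13). Lipe was nearest to Snf8 (0.07), Gstz1 (0.10) and G0s2 (0.13). Plin5 had no gene as near: its closest were Col8a1, Asb11 and Prss23, each at 0.17.

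Ratios of counts within a library do not depend on scaling between libraries, and 6 were compared. G0s2 counts were 5.73%, 6.74% and 7.60% of Pnpla2 counts in WT and 6.24%, 9.16% and 7.92% in KO, so the balance of inhibitor and lipase transcripts overlapped between genotypes. Abhd5 counts were 9.45%, 5.47% and 11% of Pnpla2 counts in WT and 10%, 9.73% and 10.8% in KO, with the low value again in WT library 2. Plin2 counts were 71.5%, 206% and 78.3% of Plin5 counts in WT and 105%, 111% and 137% in KO. Apart from WT library 2, every KO value of this last ratio was above the other WT values. The groups of all 6 ratios, which also include Hilpda, Plin5 and Lipe over Pnpla2, overlapped. The exact two-sided permutation test, whose smallest possible p is 0.1 for 3 against 3, gave p-values of 0.4 to 0.9 and an adjusted p of 0.9 for each. The log2 difference of Plin5 over Pnpla2 was -0.21 and, without WT library 2, -0.73; that of Plin2 over Plin5 was 0.16 and 0.64.

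Other genes of droplet biology are given from lists by their counts and medians. Of 16 other coat and assembly proteins, 14 were tested in total RNA and 0 passed in either direction. With all libraries 5 were higher and 9 lower in KO, and the median log2 difference was -0.05. Without WT library 2, 11 were higher and 3 lower, with a median of 0.07. Cidea, a droplet fusion protein and also a brown fat marker, had the smallest p, with counts of 57, 3806 and 125 in WT against 16, 22 and 20 in KO, all KO libraries below all WT libraries. Its log2 difference was -5.57 ± 1.55 with all libraries and -1.56 ± 0.38 without WT library 2 (edgeR adjusted p = 0.897 and 0.742). Cidec, which fuses droplets in white fat, went from -2.21 ± 1.01 to 0.25 ± 0.47, and Bscl2 (seipin, needed for droplet assembly) from -0.49 ± 0.33 to 0.05 ± 0.21. Fitm1, a droplet assembly protein of muscle, was at 0.50 ± 0.29 and at 0.60 ± 0.34.

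Of 13 other lipid hydrolases, 9 were tested, 0 passed, 2 were higher and 7 lower in KO, with a median of -0.25 and, without WT library 2, of -0.24. Lpl, the lipase that takes fatty acids from blood lipoproteins, was at 451, 940 and 368 CPM in WT and at 237, 316 and 270 CPM in KO, again with all KO libraries below all WT libraries. The log2 difference of Lpl was -1.10 ± 0.33 (unadjusted p = 0.00837, edgeR adjusted p = 0.897), and -0.56 ± 0.21 without WT library 2. Ces1d, a carboxylesterase of fat and liver, was at -0.87 ± 0.37 and at -0.24 ± 0.21 without that library; Ddhd2 was at -0.38 ± 0.19 and at -0.29 ± 0.21, and Pnpla3 at -0.77 ± 0.44 and at -0.40 ± 0.43.

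Of 16 PPAR factors and targets, 15 were tested, 0 passed, 3 were higher and 12 lower in KO, with a median of -0.25 and, without WT library 2, of -0.16. Ppara, the PPAR receptor of fat-burning tissues, was at 7.44, 5.29 and 7.64 CPM in WT and at 4.45, 3.05 and 3.31 CPM in KO, so the groups did not overlap. Its log2 difference was -0.92 ± 0.25 (unadjusted p = 0.00487, edgeR adjusted p = 0.897), and -1.06 ± 0.27 without WT library 2. Cpt1b, which carries fatty acids into muscle mitochondria, was at -0.61 ± 0.24 and at -0.69 ± 0.26 without it; Acaa2, an enzyme of fatty acid oxidation, was at -0.40 ± 0.24 and at -0.09 ± 0.21 without it. Ppara and Cpt1b, as Plin5 and Plin4, were thus no closer to 0 without the brown fat library. The same held for Fitm1, Mgll and Hilpda, which were above 0 with and without it. The share of all genes that did so was not counted, and a link between these genes was not tested.

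Of 17 genes of adrenergic and cAMP control, which switches lipolysis on, 14 were tested and 0 passed. In KO 3 were higher and 11 lower, with a median of -0.09 (-0.04 without WT library 2). Prkar2b, a regulatory subunit of protein kinase A, went from -2.17 ± 0.86 to -0.14 ± 0.30 without WT library 2, and the phosphodiesterase Pde3b from -0.66 ± 0.47 to 0.12 ± 0.33. Pde4b and Prkaca were each at 0.24. Of 12 hypoxia responsive genes, 12 were tested, 0 passed, 5 were higher and 7 lower, with a median of -0.10 (0.03 without WT library 2). Pfkfb3 was at -0.70 ± 0.31, Vegfa at -0.83 ± 0.41, Bnip3 at -0.30 ± 0.17 and Adm at 0.52 ± 0.36, on either side of 0, as Hilpda (0.19 ± 0.30) had KO libraries above and below WT.

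Marker lists of muscle fibres and of other cells were read from the same fit, with 0 genes passing in each. The 8 tested of 9 general adipocyte markers were all lower in KO with a median of -0.72, and were split 4 and 4 with a median of 0.00 without WT library 2. The 4 tested of 8 brown adipocyte markers had medians of -1.61 and 0.02. Skeletal fibre markers had a median of 0.49 (8 of 10 higher), endothelial markers of 0.34 (6 of 6 higher) and macrophage markers of -0.14 (6 of 6 lower). The 2 lower fibre markers were Myh2 (-0.74 ± 0.19, unadjusted p = 0.00348, edgeR adjusted p = 0.897) and Myh7 (-0.19 ± 1.10). Myh2 had the smallest p of the fibre markers. Of the islet and exocrine pancreas markers 1 of 9 was tested, at 5.91. The part of these cells in the values of the 10 genes was not tested.

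RNA recovered with the IMP2 antibody was compared between WT and KO muscle. The KO IP is the background of the antibody only if KO muscle lacks IMP2, which these counts do not check. Igf2bp2 itself was at 13.1 and 1.73 CPM in WT IP and at 9.72 and 5.77 CPM in KO IP. Its log2 difference, WT minus KO, was 0.02 ± 0.78 (edgeR adjusted p = 0.995). None of the 10 genes passed the test between WT and KO IP. Abhd5 and Hilpda had the largest log2 differences, higher in WT, and both rest on few reads. The other 8 had log2 differences between -0.36 (Plin3) and 0.24 (Plin5).

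Abhd5 was at 15.9 and 15.1 CPM in WT IP and at 6.48 and 9 CPM in KO IP, from 34, 35, 6 and 39 counts. The WT libraries were close to each other and above both KO libraries. The log2 difference, WT minus KO, was 0.93 ± 0.49 (95% interval -0.12 to 1.98, unadjusted p = 0.0785, edgeR adjusted p = 0.519).

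Hilpda was at 4.69 and 6.91 CPM in WT IP, from 10 and 16 counts, and at 0 and 2.31 CPM in KO IP, from 0 and 10 counts. A count of 0 in KO IP library 1, the shallowest, allows up to 3.27 CPM. Its log2 difference was 1.77 ± 0.91 (95% interval -0.17 to 3.72, unadjusted p = 0.0709, edgeR adjusted p = 0.509). Without KO IP library 2, which holds the only KO IP reads of Hilpda, the fitted value was 6.40; it then depends on the prior count and is no bound.

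Plin3 was at 74.0 and 59.2 CPM in WT IP and at 96.1 and 77.1 CPM in KO IP, the only gene of the 10 with both KO libraries above both WT libraries; the log2 difference was -0.36 ± 0.25 (edgeR adjusted p = 0.66). Plin2 was at 46.9 and 45.8 CPM in WT IP and 44.3 and 45.2 CPM in KO IP, which did not overlap by a narrow margin, at 0.05 ± 0.27. Plin4 was at 220 and 243 CPM against 234 and 214, and Plin5 at 24.8 and 34.6 CPM against 25.9 and 24.7. Plin5 and Plin4, which had the most negative log2 differences in total RNA, thus overlapped between genotypes in IP. Neither had passed in total RNA, where Plin4 overlapped as well.

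Pnpla2 was at 447 and 479 CPM in WT IP and at 592 and 426 CPM in KO IP, and Lipe at 33.3 and 34.6 CPM against 47.5 and 29.8. Mgll was at 135 and 143 CPM against 110 and 180, and G0s2 at 25.3 and 28.5 CPM against 44.3 and 18.5. For these 4 genes the WT values lay between the KO values, with KO libraries 1 and 2 far apart. Their log2 differences were between -0.13 and -0.09.

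**Figure D4:**
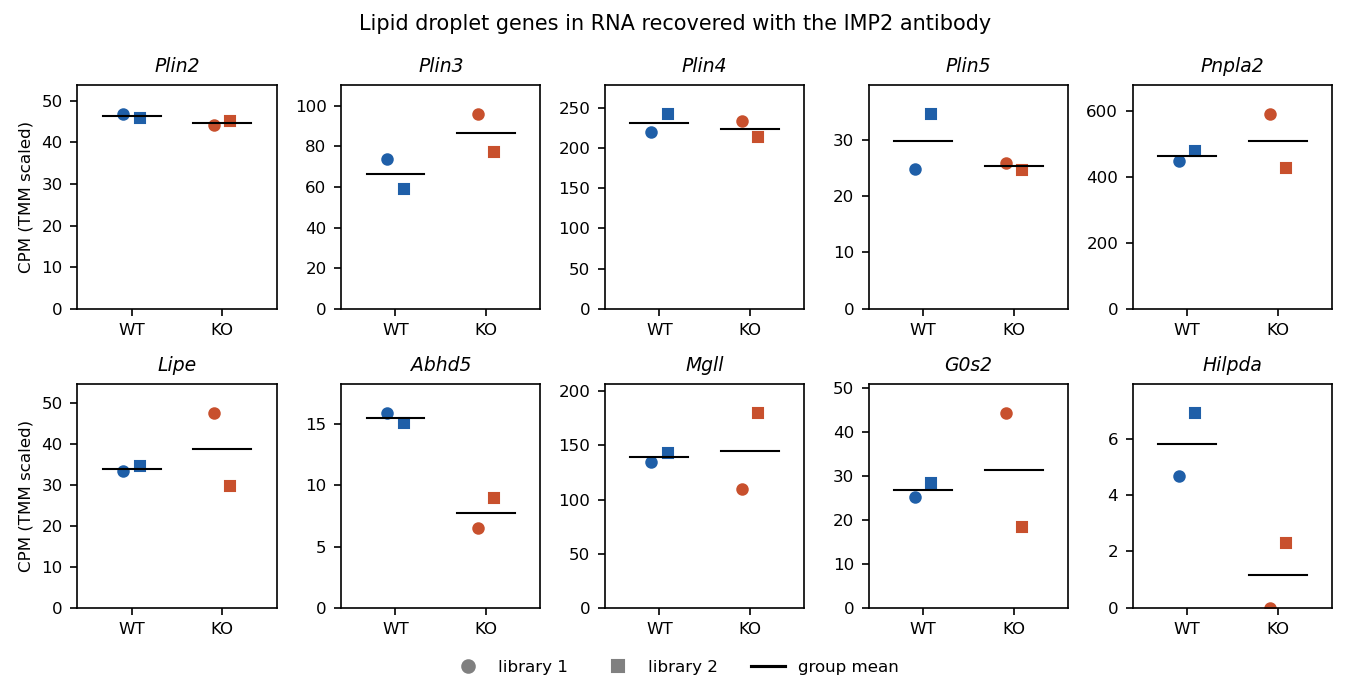
Levels of the 10 genes in IP libraries, in CPM scaled by TMM factors over the 4 IP libraries, with 1 point per library and a line at the group mean. Abhd5 (15.9 and 15.1 against 6.48 and 9) and Hilpda (4.69 and 6.91 against 0 and 2.31) are higher in both WT libraries, and Pnpla2, Lipe, Mgll and G0s2 have KO points on either side of the WT points.

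Of the 10730 genes tested in IP, edgeR called 0 (0% called), DESeq2 85 and limma-voom 3, with 0 of the 10 genes in any of them. At an unadjusted p of 0.05 edgeR counted 0 of the 10, where it counted 10.5% of all genes. WT IP was above KO IP without overlap for 3 of the 10 (Plin2, Abhd5 and Hilpda), where 20.3% of all genes did so, and below it for 1 (Plin3), where 20.8% did so. The median log2 difference of the 10 was -0.02 and that of all genes -0.01. Brown adipocyte markers summed to 910 and 1344 CPM in WT IP and to 941 and 666 CPM in KO IP, mostly from Cox8b, which muscle also expresses (794 and 611 CPM in KO IP, and 391 CPM in WT total RNA library 1, which had 2 counts of Ucp1). Cidea was at 13.1 and 114 CPM in WT IP and 85.3 and 27.2 CPM in KO IP. The islet and exocrine pancreas markers summed to 49.7 and 375 CPM in WT IP and 413 and 156 CPM in KO IP; their part in these values was not tested.

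IP was then set against total RNA within each genotype, in a fit of all 10 libraries; CPM in these paragraphs are scaled over all 10 and differ slightly from those above. Abhd5 was the gene of the 10 that passed in both genotypes, and it was lower in IP each time. In WT, Plin5 and Plin4 were also lower in IP, and in KO, Plin3 and Mgll were higher in IP. These contrasts say which share of the reads a gene holds in each kind of RNA.

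Abhd5 was at 35.4, 31.7 and 25.7 CPM in WT total RNA and at 14.3 and 13.6 CPM in WT IP, and at 32.2, 25.3 and 30.7 CPM in KO total RNA and at 5.76 and 8.09 CPM in KO IP. Every IP library lay below every total RNA library. The log2 difference, IP minus total, was -1.15 ± 0.25 in WT (edgeR adjusted p = 0.00245) and -1.98 ± 0.28 in KO (adjusted p = 1.25e-04). It passed with each library left out in turn, at -1.26 to -1.04 in WT and -2.36 to -1.87 in KO.

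Plin5 was at 83.0, 43.3 and 51.7 CPM in WT total RNA and at 22.3 and 31.2 CPM in WT IP, a log2 difference of -1.15 ± 0.28 (edgeR adjusted p = 0.00585). In KO it was at 39.6, 33.9 and 41.7 CPM in total RNA and at 23.1 and 22.2 CPM in IP, a log2 difference of -0.77 ± 0.29 (edgeR adjusted p = 0.0526). The IP libraries were below the total RNA libraries in both genotypes, and only the WT contrast passed.

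Plin4 was at 369, 332 and 543 CPM in WT total RNA and at 198 and 219 CPM in WT IP, a log2 difference of -0.99 ± 0.24 (edgeR adjusted p = 0.00589). In KO it was at 352, 275 and 258 CPM in total RNA and at 208 and 192 CPM in IP, a log2 difference of -0.56 ± 0.24 (edgeR adjusted p = 0.0828). The 4 IP libraries lay between 192 and 219 CPM for Plin4. Without WT IP library 1, Plin4 (-0.94, adjusted p = 0.0542) and Plin5 (-0.95, adjusted p = 0.0709) no longer passed in WT.

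Plin3 was at 39.6, 41.3 and 30.7 CPM in KO total RNA and at 85.5 and 69.3 CPM in KO IP, a log2 difference of 1.04 ± 0.22 (edgeR adjusted p = 0.00253). In WT it was at 57.1, 50.4 and 39.3 CPM in total RNA and at 66.5 and 53.4 CPM in IP, which overlapped, with a difference of 0.29 ± 0.22 (edgeR adjusted p = 0.318).

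Mgll was at 62.1, 86.6 and 88.4 CPM in KO total RNA and at 98.0 and 162 CPM in KO IP, a log2 difference of 0.74 ± 0.26 (edgeR adjusted p = 0.0405). The groups did not overlap, but the KO IP libraries were far apart, and without KO IP library 2 the difference was 0.30 (adjusted p = 0.577). It did not pass either without KO total RNA library 1 (adjusted p = 0.135) or library 2 (adjusted p = 0.058), nor with the replicate number as a block (adjusted p = 0.0661). In WT it was at 73.2, 102 and 59.6 CPM in total RNA and at 122 and 129 CPM in IP, a difference of 0.68 ± 0.26 (edgeR adjusted p = 0.0574).

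With all libraries, the other 5 genes did not pass in either genotype. Plin2 had log2 differences of -0.60 ± 0.30 in WT and -0.18 ± 0.30 in KO, Lipe of -0.53 ± 0.31 and -0.12 ± 0.32, and G0s2 of -0.11 ± 0.36 and 0.20 ± 0.38. In WT without total RNA library 2, Plin2 was at -0.26, Lipe at -0.11 and G0s2 at 0.30; without total RNA library 3, Plin2 was at -0.83 and passed (edgeR adjusted p = 0.02). Pnpla2 was at 0.07 ± 0.30 in WT and 0.65 ± 0.30 in KO. Hilpda was at 0.41 ± 0.49 in WT and -1.50 ± 0.60 in KO, the widest intervals of the 10. It was 0.02 in WT without WT IP library 2, and the fitted KO value of -8.21 without KO IP library 2, with no KO IP read left, is no bound.

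**Figure D5:**
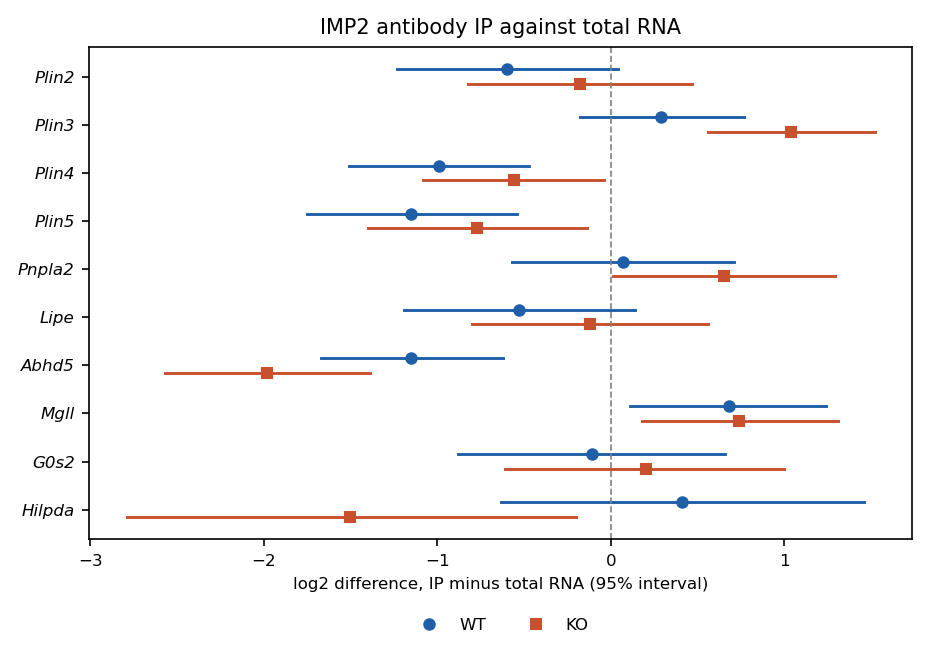
Log2 difference between IP and total RNA in WT (blue circles) and KO (red squares), with 95% intervals. The interval of Abhd5 lies below 0 in both genotypes (-1.15 and -1.98), Plin5 and Plin4 are below 0, and Plin3 is further above 0 in KO (1.04) than in WT (0.29), a difference that did not pass its test.

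Of all 14399 genes in this fit, 37.0% passed in WT (19.4% lower and 17.6% higher in IP) and 36.5% in KO (18.8% lower and 17.7% higher). Of the 10 genes, 3 passed in WT, all lower, and 3 in KO, 1 lower and 2 higher, so the counts lie near these shares. With DESeq2's size factors the KO split was 2 lower (Abhd5 and Plin5) and 1 higher (Plin3). With library size as the only scaling, the KO median of all genes was 0.47 in place of 0.03, Plin5 was at -0.33 and Plin4 at -0.14, while Abhd5 (-1.54) and Plin3 (1.46) still passed. The IP libraries also differed from total RNA in marker transcripts of the fibres and of other cells. The skeletal fibre markers that passed were all lower in IP (5 of 10 in WT, 8 of 10 in KO). Ucp1 had 44 and 97 counts in the KO IP libraries but 1, 1 and 2 in the deeper KO total RNA libraries. The part of these marker differences in the values of the 10 genes was not tested.

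Related genes were read from the same contrasts. Of all genes, 17.6% passed higher and 19.4% lower in WT, and 17.7% higher and 18.8% lower in KO. Of 14 other coat and assembly proteins tested, 6 passed higher and 2 lower in WT, and 6 higher and 2 lower in KO. Bscl2 passed in both genotypes (1.51 ± 0.34 in KO). Fitm1 passed in WT (1.32 ± 0.29) but not in KO (0.14 ± 0.29). Its difference between genotypes of 1.19 ± 0.42 did not pass (edgeR adjusted p = 0.347). Of 10 other lipid hydrolases tested, 3 passed higher and 1 lower in WT and 2 higher and 0 lower in KO. Lpl was at 1.43 ± 0.34 in WT and 2.68 ± 0.35 in KO. Of 16 PPAR factors and targets tested, 0 passed higher and 7 lower in WT and 3 higher and 6 lower in KO. Ppara had at most 1 count in each IP library, and Cpt1b was at -3.45 ± 0.46 in WT and -2.40 ± 0.45 in KO, further below 0 than any of the 10 genes. Of 16 cAMP genes tested, 2 passed higher and 4 lower in WT and 1 higher and 4 lower in KO.

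The difference between the genotypes in IP against total RNA is the test that sets recovery in WT against recovery in KO. No gene of the 10 passed it, where 1 of 14399 genes did (0.00694%) in edgeR; DESeq2 called 21 and limma-voom 0, none of them among the 10. At an unadjusted p of 0.05 edgeR counted 3 of the 10, against 11.8% of all genes. These were Hilpda (1.91 ± 0.78, adjusted p = 0.374) and Abhd5 (0.83 ± 0.37, adjusted p = 0.398), relatively more recovered in WT, and Plin3 (-0.75 ± 0.32, adjusted p = 0.386), relatively more in KO. The count of 3 was 0 without KO total RNA library 3 or KO IP library 1, and 1 without WT total RNA library 2 or WT IP library 2. Without KO IP library 2 the fitted value of Hilpda was 8.61, again with no KO IP read left. This contrast shares its libraries with the comparisons above, so the 3 genes are not independent support for those values. Intervals of Plin5 (-1.23 to 0.48) and Plin4 (-1.15 to 0.29) included 0.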

How the data were processed

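RNA of 10 libraries was measured. The submitters' processing notes name STAR and HTSeq and the builds mm10 and GRCm38; versions, annotation release and strand setting are not given in the sources used here. The deposited values are whole-number counts of reads per Ensembl gene, 1 file per library, as the authors made them. The 5 lines per file for reads given to no gene were left out of library sizes. Symbols, positions and exon lengths came from GENCODE M21 (GRCm38), and upstream sequences from RefSeq (GRCm38.p6).

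Low genes were removed with filterByExpr and TMM factors were applied. Tests were two-sided quasi-likelihood F tests in edgeR 4.0.16 (R 4.3.3) on group alone, with Benjamini-Hochberg adjustment over all genes and a threshold of 0.05. The genotypes were compared in the 6 total RNA libraries and, separately, in IP (4 libraries). All 10 libraries in 1 fit gave IP against total RNA and its difference between genotypes. SE of log2 differences came from the F statistic; levels are CPM with TMM factors, and SD are between libraries. Alternatives were DESeq2 1.42.0, limma-voom 3.58.1, other scaling, no filter, a replicate term and libraries left out. The scripts were tested on simulated data. The genes, the lists and the tests were chosen with earlier results of these data known. Named are the 10 genes in every comparison, up to 4 of each list with the smallest p in total RNA, and for the 4 genes of largest spread the 3 nearest in pattern; marker genes of other cells are named where their levels stand beside a result. A gene that this rule would name is not reported here.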

Additional observations from a re-analysis of the deposited data

How the results depend on the processing

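Under every alternative run, 0 of the 10 genes passed in total RNA, in IP or in the difference between genotypes. In IP against total RNA, 3 passed in WT and 5 with no filter on low counts, where 5611 of 23970 genes did. With each WT total RNA library left out, 3 to 4 passed, where 4599 to 4883 of all genes did. For IP against total RNA, counts with an IP library left out are not given, since 1 library is then left in that group. The dependence of Plin4 and Plin5 on WT IP library 1 is described above. In KO 3 passed, 6 with no filter (5541 of 23970 genes) and 5 with DESeq2 (5121 of 23930 genes). With each KO total RNA library left out, 2 to 3 passed, where 4037 to 4670 of all genes did. Over all genes, calls in total RNA were 0, 64 with no filter and 3 with DESeq2. In IP they were 0, 103 with no filter, 85 with DESeq2, 3 with limma-voom and 13 to 146 with each library left out, and in the difference between genotypes 1, 263 with no filter and 21 with DESeq2. Of the single values under an alternative, 611 kept direction and side of the threshold, 15 newly passed, 7 no longer passed and 51 changed direction; none of those that changed direction had passed. The cause was not tested.

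The values that changed direction are log2 differences of genes or of count ratios. With library size alone, Mgll was at -0.18 and Hilpda at -0.05 in total RNA, Plin2 at -0.10 and Plin4 at -0.09 in IP, and Plin2 at 0.27 and Lipe at 0.32 in KO IP against total RNA. With limma-voom, Lipe was at 0.01 and G0s2 at 0.25 in IP, G0s2 at -0.10 in KO IP against total RNA and at 0.08 in the difference between genotypes. Without WT total RNA library 2 and KO total RNA library 1, Lipe was at 0.18 and G0s2 at 0.24 in total RNA, G0s2 at 0.31 in WT IP against total RNA, and Lipe at 0.07, Mgll at 0.32 and G0s2 at 0.16 in the difference. With each library left out, total RNA gave -0.49 to 0.13 for Lipe, -0.19 to 0.02 for Abhd5, -0.14 to 0.26 for Mgll, -0.44 to 0.18 for G0s2 and -0.10 to 0.42 for Hilpda. IP gave -0.02 to 0.12 for Plin4, -0.01 to 0.46 for Plin5, -0.36 to 0.12 for Pnpla2, -0.49 to 0.19 for Lipe, -0.37 to 0.33 for Mgll and -0.72 to 0.55 for G0s2. IP against total RNA gave -0.19 to 0.45 for Pnpla2 and -0.32 to 0.30 for G0s2 in WT, and -0.30 to 0.02 for Plin2, -0.43 to 0.22 for Lipe and -0.42 to 0.82 for G0s2 in KO. The difference between genotypes gave -0.76 to 0.02 for Lipe, -0.37 to 0.37 for Mgll and -0.94 to 0.30 for G0s2. The ratios gave -0.73 to 0.05 for Plin5 over Pnpla2, -0.05 to 0.34 for Lipe over Pnpla2 and -0.12 to 0.64 for Plin2 over Plin5. A group left with 1 library was assumed to vary like the others.

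Deviations of same-numbered WT and KO total RNA libraries correlated at 0.12, -0.14 and -0.34 over genes. Those of different numbers correlated at -0.39 to 0.41, so no pairing of WT with KO by number was seen in total RNA. In IP the same-numbered value was -0.07 for both pairs. With 2 libraries in a group the deviations mirror each other, so this is 1 value and cannot show whether IP libraries are paired. Same-numbered total RNA and IP libraries correlated at 0.11 and 0.11 in WT and at 0.14 and 0.16 in KO; 2 pairs a genotype are too few to read, and whether they share an animal is not given in the sources used here. With the replicate block, edgeR called 0 genes in total RNA and 28 in IP, none of the 10 among them, Pnpla2 was at -0.04 in WT IP against total RNA and Mgll at 0.01 in the difference, 3 of the 10 passed in WT IP against total RNA, and 2 in KO, where Mgll had an adjusted p of 0.0661.

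Hilpda had at most 16 counts and Abhd5 at most 39 in an IP library, which limits the precision of their IP values.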
